A study of Homo sapiens with 4 samples.

Results

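The genes described here encode the nuclear subunits of the 5 oxidative phosphorylation complexes, as read from RNA of KGN cells, a line grown from a human granulosa cell tumour of the ovary. A gene was taken as a member when its symbol began with NDUFA, NDUFB, NDUFC, NDUFS or NDUFV and a number, was SDHA to SDHD, or began with UQCR, with COX4 to COX8 and a letter, or with ATP5. This rule used names only and no measured value. It found 78 of the 19775 genes that had a probe set with 1 gene symbol, read by 152 of 54675 probe sets. The probe set brightest on average over the arrays stood for each gene. Of the 78, 75 were above the floor of 62.6 (the median of all intensities) on at least 1 array, as were 14427 genes in all, and these were compared. The 70 above the floor on all 4 arrays comprised 32 genes of complex I, 3 of complex II, 6 of complex III, 12 of complex IV and 17 of complex V. COX8C, COX7B2 and ATP5MF were below the floor on all 4 arrays, and 2 members, ATP5MC2P1 and COX6A1P1, are annotated as pseudogenes. ATP5IF1, an inhibitor of the ATP synthase, and COX7A2L, a supercomplex factor, are not core subunits and were kept under the rule. Subunits read only by probe sets with several symbols, such as SDHB and UQCRFS1, were not analysed here.

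The study crossed 2 treatments and hybridised 1 Affymetrix array (HG-U133 Plus 2.0) per group, 4 in all. The groups were YAP and TAZ siRNAs (5 nM each) with 8Br-cAMP (siYT+8Br-cAMP), the same siRNAs without it (siYT), control siRNA (10 nM) with 8Br-cAMP (siNC+8Br-cAMP), and control siRNA alone (siNC). All 4 groups were transfected KGN cells, and the medium was exchanged at 48 h for one with or without 8Br-cAMP at 0.5 mM for a further 24 h. The compound is an analogue of cyclic AMP that enters cells. YAP and TAZ are transcriptional co-activators restrained by the Hippo pathway, and cyclic AMP carries the gonadotropin signal in granulosa cells. The comparisons asked how transcript levels differ with YAP/TAZ knockdown and with 8Br-cAMP. With 1 array per group no difference has a replicate check, so differences are given as sizes on the log2 scale, and the only p-values come from an additive fit over all genes. As all samples are bulk RNA of 1 cell line, a smaller share of cells expressing a gene and less of its RNA per cell cannot be told apart.

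Oxidative phosphorylation passes electrons from NADH (complex I) and succinate (complex II) through ubiquinone to complex III, by cytochrome c to complex IV, and to oxygen. The protons pumped on the way drive ATP synthesis by complex V. Most subunits are nuclear genes, a few are encoded in mitochondrial DNA, and in steroid-making cells the same mitochondria also hold the enzyme that starts steroid synthesis from cholesterol.

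Promoters of these genes are known for sites of NRF1 and of ETS factors such as GABP. Promoter sequences (RefSeq, GRCh38.p14) were matched by gene identifier for 65 members with 78 promoters and searched on both strands over 300 bases, of which 50 follow the start. The 250 bases before the start of 5 members are shown because the results below turn on these genes, which were chosen after their values were seen. SDHA and NDUFB4 were higher with 8Br-cAMP and hold NRF1 matches. ATP5MC1 was lower with knockdown and higher with 8Br-cAMP and holds a cyclic AMP response element. NDUFA1 was lower with 8Br-cAMP, UQCRQ differed in direction between the siRNAs, and both hold an ETS match. Capitals mark the motif match, which is GCGCA and GCGC with any 1 base between them for NRF1 in SDHA (chr5:218070-218319) and NDUFB4 (chr3:120596086-120596335), TGACGTCA in ATP5MC1 (chr17:48892537-48892786), and CCGGAAG or its reverse complement in UQCRQ (chr5:132866392-132866641) and NDUFA1 (chrX:119871582-119871831). All 5 lie on the plus strand and are written 5′ to 3′.
SDHA: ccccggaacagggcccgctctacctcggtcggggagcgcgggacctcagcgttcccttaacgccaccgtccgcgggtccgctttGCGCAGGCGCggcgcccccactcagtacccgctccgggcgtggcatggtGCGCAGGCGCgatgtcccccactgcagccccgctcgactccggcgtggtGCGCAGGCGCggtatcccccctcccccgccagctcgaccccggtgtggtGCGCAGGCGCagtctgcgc
NDUFB4: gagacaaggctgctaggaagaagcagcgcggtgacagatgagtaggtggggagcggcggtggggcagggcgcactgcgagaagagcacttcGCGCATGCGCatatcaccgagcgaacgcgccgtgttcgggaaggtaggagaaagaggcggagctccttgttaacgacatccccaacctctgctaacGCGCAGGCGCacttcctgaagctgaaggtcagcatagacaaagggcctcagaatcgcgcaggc
ATP5MC1: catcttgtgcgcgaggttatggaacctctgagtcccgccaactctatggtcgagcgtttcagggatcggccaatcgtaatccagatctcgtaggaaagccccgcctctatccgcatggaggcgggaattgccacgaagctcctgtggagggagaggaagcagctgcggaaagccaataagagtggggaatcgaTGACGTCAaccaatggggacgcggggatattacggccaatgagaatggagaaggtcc
NDUFA1: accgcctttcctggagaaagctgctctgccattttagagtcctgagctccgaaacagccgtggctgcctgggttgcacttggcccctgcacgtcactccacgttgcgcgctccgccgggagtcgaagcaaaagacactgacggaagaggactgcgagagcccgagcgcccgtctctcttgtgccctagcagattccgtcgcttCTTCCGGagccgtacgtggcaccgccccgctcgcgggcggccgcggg
UQCRQ: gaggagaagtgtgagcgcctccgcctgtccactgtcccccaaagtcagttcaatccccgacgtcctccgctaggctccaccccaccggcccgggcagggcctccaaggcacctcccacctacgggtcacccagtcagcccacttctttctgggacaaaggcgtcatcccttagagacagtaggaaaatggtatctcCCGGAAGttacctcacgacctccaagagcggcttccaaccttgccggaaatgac

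The SDHA window held 4 NRF1 matches, beginning at -166, -117, -68 and -19 from the start, and that of NDUFB4 held matches at -159 and -63. The match began at -57 in ATP5MC1, at -47 in NDUFA1 and at -54 in UQCRQ. Over the members, the NRF1 motif was in 16 of 78 promoters (20.5%), against 5.78% of all 35116 promoters in the table. The ETS motif CCGGAAG was in 20 of 78 (25.6%), against 10.3% of all promoters. The full cyclic AMP response element TGACGTCA was in 4 (5.13%, against 1.85%), those of ATP5MC1, ATP5ME, NDUFA10 and NDUFB2, and the shorter TGACG, which any full element also contains, was in 34.6% (against 24.6%). GGAATG, the motif of the TEAD factors through which YAP and TAZ bind DNA, was in 10.3% of member promoters and 14.0% of all promoters. CCAAT was in 34.6% of both, and the E-box CACGTG in 8.97%, against 7.26% of all. Members with and without the NRF1 motif had median log2 differences for 8Br-cAMP of 0.80 and 0.69 under YAP/TAZ siRNA, and of 0.37 and 0.32 under control siRNA. With and without TGACGTCA these were 0.52 and 0.74 under YAP/TAZ siRNA, and 0.68 and 0.32 under control siRNA. For TGACG they were 0.74 and 0.74, and 0.39 and 0.30. For the ETS motif they were 0.59 and 0.75, and 0.40 and 0.28. TGACG was also in the promoters of NDUFA1 and UQCRQ, where it is not marked in capitals. A match is a description of the letters and not a measured binding site.

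The labels' targets were lower on both knockdown arrays. YAP1 read 1412 in siYT+8Br-cAMP and 1295 in siYT, against 4772 in siNC+8Br-cAMP and 4915 in siNC, and WWTR1, which encodes TAZ, read 1154 and 1028 against 7048 and 5366. Of 11 measured granulosa markers, 8 were above the floor on all 4 arrays, among them FOXL2, INHA, CYP19A1 and STAR, whereas FSHR, AMHR2 and NR5A1 were below it on all 4. The epithelial markers EPCAM and CDH1 and the theca or Leydig markers CYP17A1 and LHCGR were below the floor on all 4 arrays. The remaining theca or Leydig marker, INSL3, was above it on all 4, at 268 in siYT+8Br-cAMP and 213 in siYT, against 69.3 in siNC+8Br-cAMP and 156 in siNC. The remaining epithelial marker, MUC1, read 78.4 and 165 against 57.7 and 129, at least 2-fold lower with 8Br-cAMP under both siRNAs. The leukocyte markers PTPRC, CD3E and CD14 were above the floor on 1, 1 and 2 arrays, with a highest reading of 130, and the part of these markers in the results was not tested. The siYT+8Br-cAMP array stood apart in its ratio of 3' to 5' signal, with an ACTB ratio of 1.35 (1.07 to 1.14 on the remaining 3) and a GAPDH ratio of 1.13 (0.888 to 0.962), and the part of this in the results that use the array was not tested. The spread of a log2 difference among probe sets for the same gene, which serves here as a yardstick of measurement error, had an SD of 0.54 and 0.53 for the knockdown and 8Br-cAMP comparisons that use this array. The SD was 0.39 and 0.37 for the comparisons that do not.

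Most oxidative phosphorylation genes read higher with 8Br-cAMP, by amounts mostly below 2-fold, and by more under YAP/TAZ siRNA than under control siRNA in the median. Under YAP/TAZ siRNA 63 of the 75 were higher (84.0%), against 46.3% of all genes compared, and 12 were lower, against 48.5% of all genes. The median log2 difference of the 75 was 0.69 (1.61-fold), against 0.00 for all genes. Under control siRNA 66 were higher, against 46.7% of all genes, and 8 were lower, against 44.1%, with a median of 0.36 (1.28-fold), against 0.00 for all genes. These comparisons use separate arrays, and 56 members were higher in both (background 26.7%) while only COX7A2L and NDUFA1 were lower in both (background 28.8%). Both 8Br-cAMP arrays lay above both arrays without it for 52 of 75 members (69.3%), against 16.2% of all genes, and below them for 2, COX7A2L and NDUFA1, against 17.6%. In the heatmap of the members this appears as red in the columns with 8Br-cAMP and blue in those without it.

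**Figure D1:**
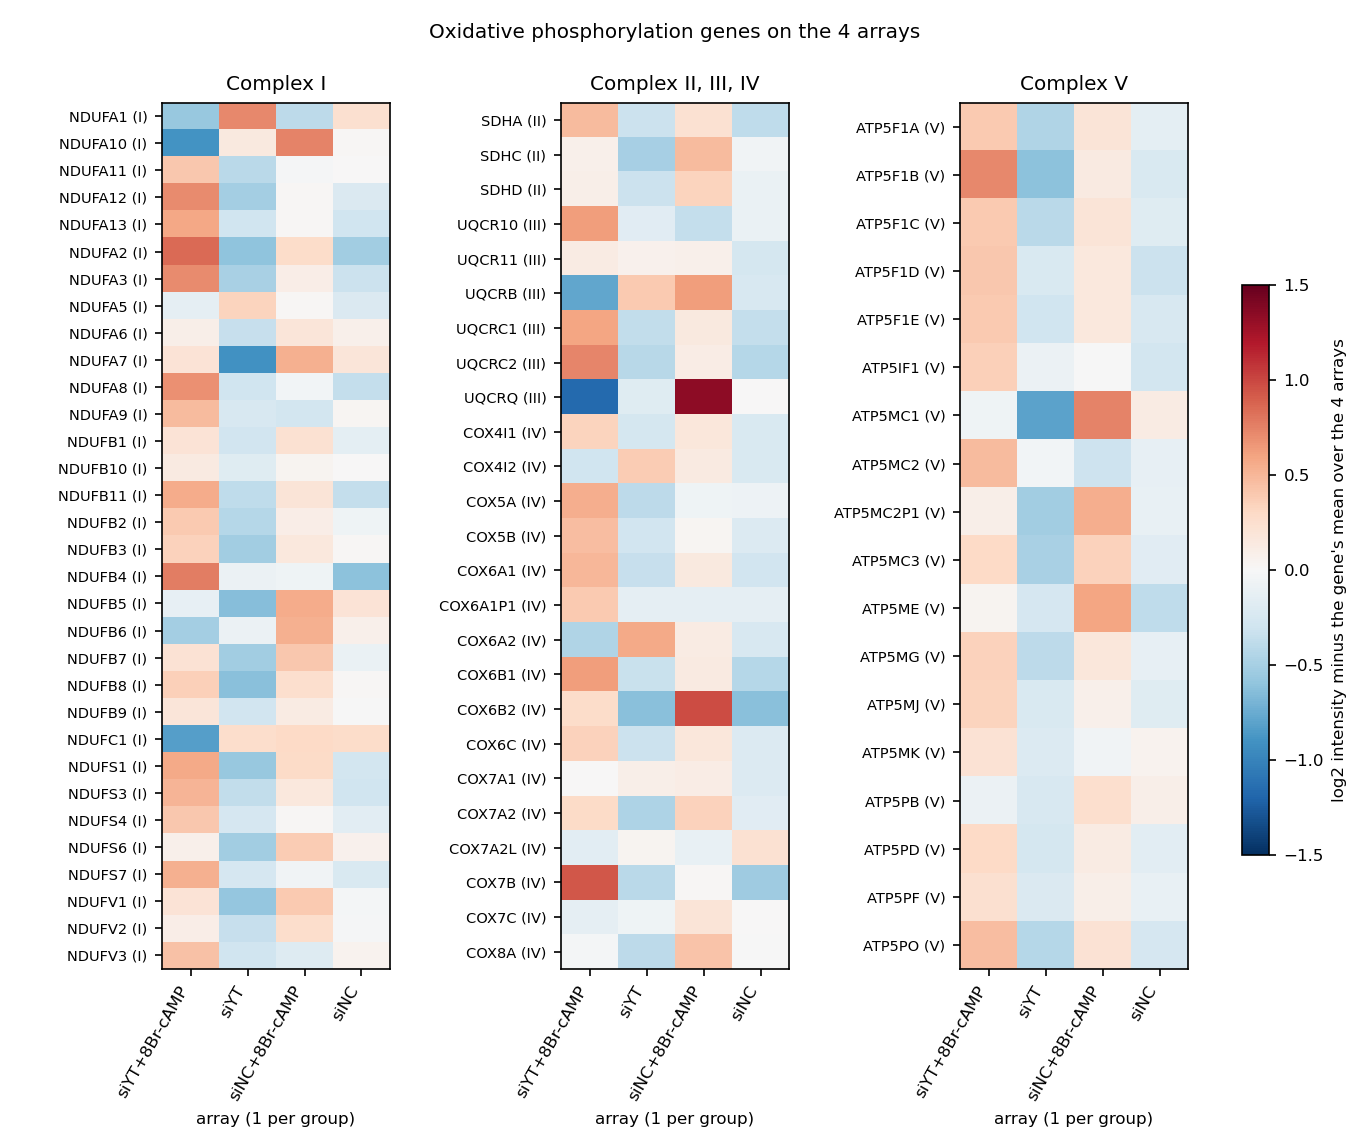
Heatmap of the 75 oxidative phosphorylation genes (rows, with their complex) on the 4 arrays (columns, 1 array per group). Colour gives the log2 intensity minus the gene's own mean over the 4 arrays, with intensities below 62.6 set to that floor. Most rows are red in the siYT+8Br-cAMP column and blue in the siYT column, and UQCRQ, UQCRB, NDUFA10 and NDUFC1 are among the rows that are blue in the siYT+8Br-cAMP column.

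Few members passed 2-fold. With 8Br-cAMP under YAP/TAZ siRNA, 8 passed 2-fold upward, against a background of 5% of all genes, and 5 downward, against 9.88%. When each array was instead centred on its median over all genes, this split became 30 higher and 1 lower. Centring adds 0.23 to this log2 difference for every gene above the floor, and the members' median was then 0.92 and that of all genes 0.14. Under control siRNA 2 were at least 2-fold higher (background 4.34%) and 0 lower (background 5.22%). At 1.5-fold the counts under YAP/TAZ siRNA were 44 higher and 7 lower (background 15% and 21.3%). Under control siRNA they were 9 and 1 (background 12.7% and 14.1%). No member was 2-fold higher in both 8Br-cAMP comparisons (background 1.46%) or lower in both (background 2.08%). Those 1.5-fold higher in both were ATP5MC1, ATP5MC2P1, COX6B2, NDUFA2 and SDHA (background 4.79%), and NDUFA1 was 1.5-fold lower in both (background 6.72%).

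Knockdown gave smaller medians with opposite signs. Without 8Br-cAMP 54 of 75 members were lower in siYT than in siNC, against 42.6% of all genes, and 19 were higher, against 47.9%, with a median of -0.12 for the members and 0.00 for all genes. With 8Br-cAMP 45 were higher in siYT+8Br-cAMP than in siNC+8Br-cAMP (background 46.9%) and 30 lower (background 48.2%), with a median of 0.18, against 0.00 for all genes. This positive median was not kept when probe sets with the suffixes for shared transcripts were left out (-0.06 over 59 members). At 2-fold, 0 members were higher and 1 lower without 8Br-cAMP (background 7.3% and 6.05%), and 0 higher and 5 lower with it (background 6.74% and 9.48%). At 1.5-fold 3 were higher and 5 lower without 8Br-cAMP (background 17.7% and 15%), and 12 higher and 8 lower with it (background 17.8% and 20%). In both knockdown comparisons 21 members were lower (background 28.5%) and 11 higher (background 28.5%), and ATP5MC1 and NDUFB5 were lower by 1.5-fold in both (background 7.76%), while 0 members were higher by that much in both (background 7.65%). Both siYT arrays lay below both siNC arrays for 8 members (background 19.3%) and above them only for ATP5MC2 (background 19.5%).

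The siYT+8Br-cAMP array gave the highest of the 4 values for 45 members (background 31%) and the lowest for 10 (background 27.7%). The 8Br-cAMP differences were opposite by at least 1.5-fold each way for UQCRQ, UQCRB and NDUFA10 (background 2.1%), and the knockdown differences for UQCRB (background 2.11%). The median difference of differences was 0.30 over the members and -0.03 over all genes. Each knockdown difference shares arrays with an 8Br-cAMP difference, so these patterns are not separate from the ones above.

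In an additive limma fit of knockdown and 8Br-cAMP over all 14427 genes, no member passed an adjusted p of 0.05 for either factor. The smallest adjusted p was 0.162 for knockdown (ATP5MC1) and 0.159 for 8Br-cAMP (COX6B2). Over all genes this fit called 0.658% higher and 1.12% lower for knockdown, and 0.111% higher and 0.0277% lower for 8Br-cAMP. At an unadjusted p under 0.05 it gave 1 member higher (NDUFB4, background 9.83%) and 3 lower (ATP5MC1, NDUFB5 and UQCRQ, background 9.99%) for knockdown. For 8Br-cAMP it gave 13 higher (background 6.27%) and 1 lower (NDUFA1, background 9.35%). The fit has 1 residual degree of freedom, and for each gene that residual is the difference of differences. Its SE and p-values therefore measure departure from additivity, moderated over all genes, and not variation between cultures or arrays. The median SE for a member was 0.28 on the log2 scale, for a coefficient averaged over both levels of the other factor. The fit gives no SE for the median 8Br-cAMP difference of 0.36 under control siRNA alone.

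**Figure D2:**
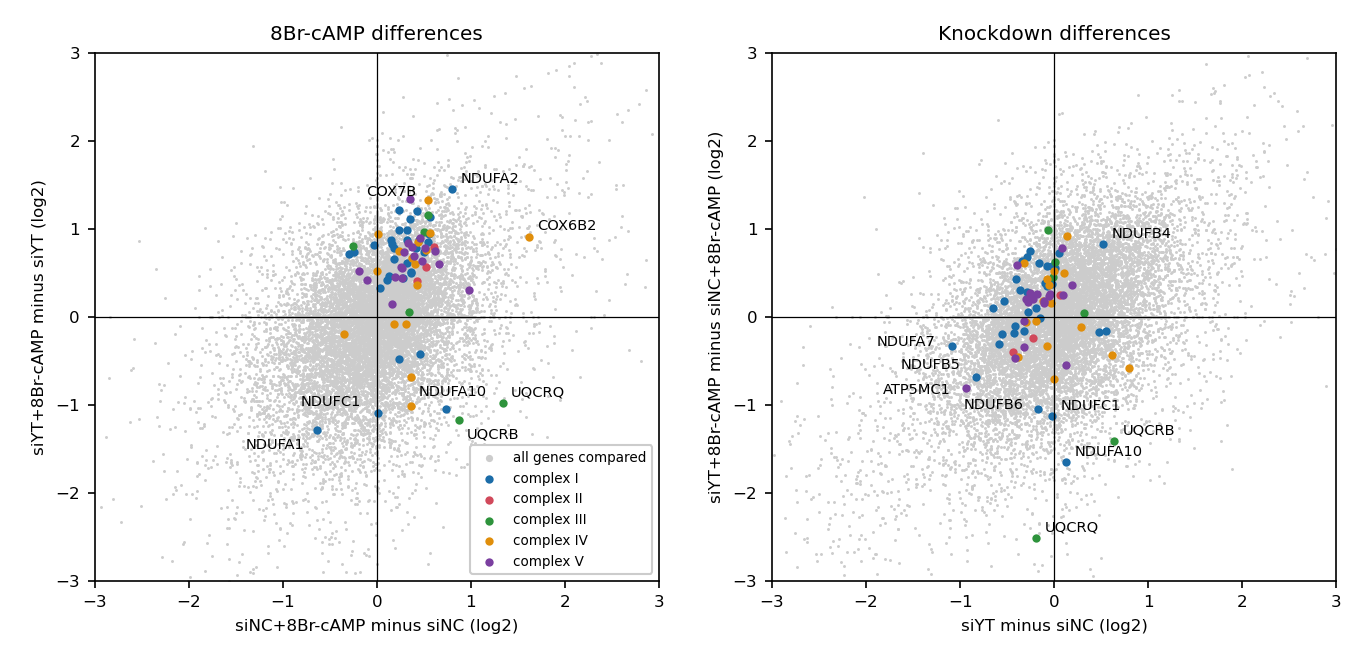
Log2 differences of all 14427 genes (grey, cropped at 3 in either direction) and of the 75 oxidative phosphorylation genes, coloured by complex. The left panel sets the 8Br-cAMP difference under YAP/TAZ siRNA (vertical) against that under control siRNA (horizontal), where most coloured points lie to the upper right. The right panel sets the knockdown difference with 8Br-cAMP (vertical) against that without it (horizontal), where the members lie on both sides of 0 and UQCRQ is lowest at -2.51.

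Level and probe design moved with these medians. Genes with high intensity were slightly higher with 8Br-cAMP as a class. The 1443 genes highest by level had medians of 0.20 under YAP/TAZ siRNA and 0.15 under control siRNA, with 64.1% and 63.3% of them higher. Within the interquartile range of the members' levels (geometric means of 4347 to 13671), the 34 members had medians of 0.51 and 0.32, against 0.16 and 0.10 for the 1115 genes of all kinds. In that range 79.4% and 85.3% of the members were higher, against 59.8% and 58.8% of the 1115 genes. The 42 members read by a probe set with a suffix for shared transcripts had medians of 0.74 and 0.31 for 8Br-cAMP under YAP/TAZ and control siRNA. The other 33 had 0.66 and 0.36, with 24 and 28 of them higher, against 44.7% and 46.0% of all genes read by unshared probe sets. For knockdown with 8Br-cAMP the medians were 0.19 over the 42 and -0.06 over the 33. Many of these genes have processed pseudogenes, whose transcripts short probes cannot always tell apart. For 21 members with more than 1 probe set above 4 times the floor, all probe sets of a gene gave the same sign for 14 and 16 of them for 8Br-cAMP under YAP/TAZ and control siRNA, and for 9 and 11 of them for knockdown with and without 8Br-cAMP.

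Complex I, the NADH dehydrogenase, had a median 8Br-cAMP difference of 0.76 under YAP/TAZ siRNA, with 27 of its 32 genes higher, and of 0.30 under control siRNA, with 28 higher. Its median knockdown difference was 0.14 with 8Br-cAMP and -0.23 without it, where 26 of 32 were lower. NDUFA2, an accessory subunit of the peripheral arm, read 10125 in siYT+8Br-cAMP and 3703 in siYT, against 6788 in siNC+8Br-cAMP and 3901 in siNC. Both 8Br-cAMP arrays were above both arrays without it, by 2.73-fold and 1.74-fold (log2 1.45 and 0.80). In the additive limma fit NDUFA2 had an 8Br-cAMP coefficient of 1.13 ± 0.30 (SE) with an adjusted p of 0.183. NDUFS1, the largest iron-sulphur subunit, read 5306 in siYT+8Br-cAMP and 2421 in siYT, against 4369 in siNC+8Br-cAMP and 2957 in siNC. A second NDUFS1 probe set read 1447 and 627 against 699 and 574, higher with 8Br-cAMP too. NDUFV1, the flavin subunit that accepts electrons from NADH, read 3483 and 2030 in siYT cells with and without 8Br-cAMP, against 3978 and 2974 in siNC cells.

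The accessory subunits NDUFA12, NDUFA3 and NDUFA7 passed 2-fold for 8Br-cAMP under YAP/TAZ siRNA only. NDUFA12 read 16069 in siYT+8Br-cAMP and 6926 in siYT, against 10005 in siNC+8Br-cAMP and 8480 in siNC. NDUFA3 read 8072 and 3519 with YAP/TAZ siRNA, against 5281 and 3929 with control siRNA, in the same order. NDUFA7 read 2072 in siYT+8Br-cAMP and 960 in siYT, against 2613 in siNC+8Br-cAMP and 2039 in siNC, so that its 2.16-fold difference in siYT cells ended at the level of siNC. It was the only member 2-fold lower in siYT than in siNC (2.12-fold, log2 -1.09). Whether these differences depend on the siRNA has no test here.

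NDUFB4 and NDUFB5, accessory subunits of the membrane arm, were the complex I genes with the highest and lowest mean knockdown difference. NDUFB4 read 30643 in siYT+8Br-cAMP and 16990 in siYT, against 17269 in siNC+8Br-cAMP and 11831 in siNC. Its highest value was the one with both treatments, and the log2 differences were 0.83 and 0.52 for knockdown and 0.85 and 0.55 for 8Br-cAMP. The dim second probe set of NDUFB4 read 57.2 in siYT+8Br-cAMP and 185 in siYT, against 195 in siNC+8Br-cAMP and 53.6 in siNC. It ran the other way for knockdown with 8Br-cAMP (-1.64) and for 8Br-cAMP under YAP/TAZ siRNA (-1.56). It ran the same way for knockdown alone (1.56) and for 8Br-cAMP under control siRNA (1.64). NDUFB5 read 6886 in siYT+8Br-cAMP and 4833 in siYT, against 11071 in siNC+8Br-cAMP and 8619 in siNC. Both siYT arrays were below both siNC arrays, by 1.61-fold with 8Br-cAMP and 1.78-fold without it. In the additive limma fit the knockdown coefficient was 0.67 ± 0.27 (SE) for NDUFB4 and -0.76 ± 0.27 for NDUFB5, with adjusted p of 0.247 and 0.197.

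With 8Br-cAMP under YAP/TAZ siRNA 5 complex I genes were lower, NDUFA1, NDUFA10, NDUFB6, NDUFC1 and NDUFA5 (log2 -0.48 for NDUFA5). Of these only NDUFA1 was also lower under control siRNA. NDUFA1, a small membrane subunit needed for assembly of the complex, read 5015 in siYT+8Br-cAMP and 12228 in siYT, against 5645 in siNC+8Br-cAMP and 8789 in siNC. Both 8Br-cAMP arrays were below both others, by 2.44-fold and 1.56-fold (log2 -1.29 and -0.64), and the additive limma coefficient was -0.96 ± 0.30 (SE) with an adjusted p of 0.220. NDUFA10, an accessory subunit related to nucleoside kinases, read 1532 in siYT+8Br-cAMP and 3157 in siYT, against 4802 in siNC+8Br-cAMP and 2885 in siNC. The 8Br-cAMP difference was -1.04 with YAP/TAZ siRNA and 0.74 with control siRNA, and the value with both treatments was the lowest. NDUFC1 read 4260 in siYT+8Br-cAMP and 9068 in siYT, against 9293 in siNC+8Br-cAMP and 9214 in siNC, so 3 arrays were nearly equal and the array with both treatments was 2.13-fold to 2.18-fold lower. NDUFB6 read 4686 in siYT+8Br-cAMP and 6263 in siYT, against 9665 in siNC+8Br-cAMP and 7034 in siNC. The other probe sets of NDUFA10 and NDUFB6 were near or below the floor, with highest readings of 119 and 89.4. The dim second probe set of NDUFC1 read 129 in siYT+8Br-cAMP and 55.3 in siYT, against 75.2 in siNC+8Br-cAMP and 159 in siNC. It ran the other way from the first for 8Br-cAMP under YAP/TAZ siRNA (1.04) and for knockdown with 8Br-cAMP (0.78).

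**Figure D3:**
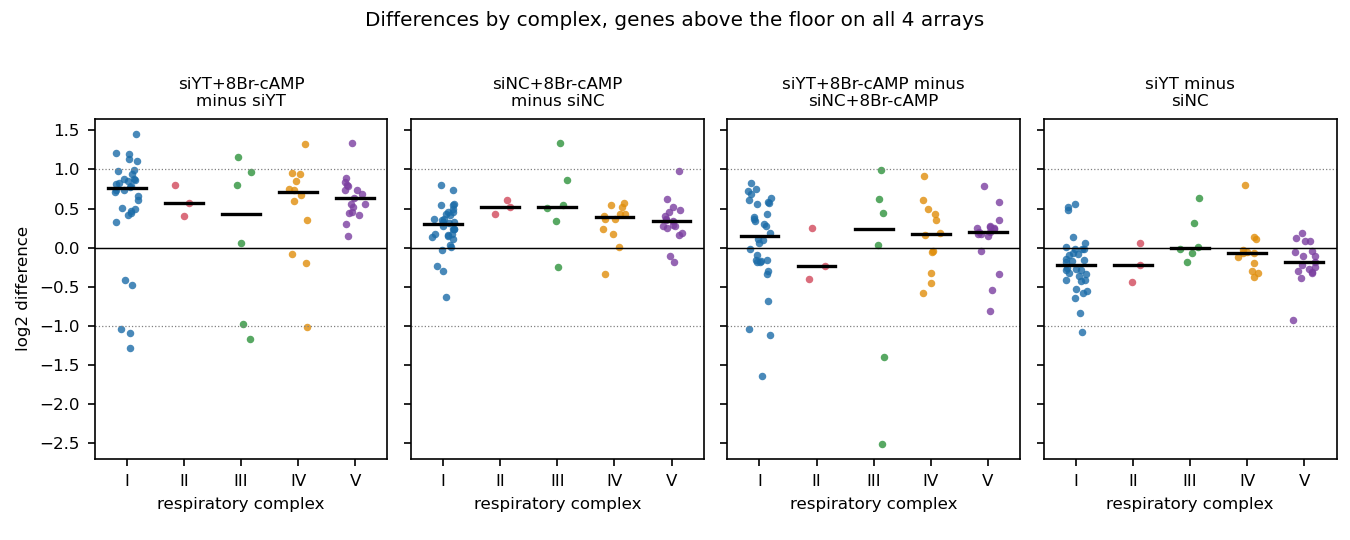
Log2 differences of the 70 genes that were above the floor on every array, by respiratory complex, in each of the 4 comparisons, with the direction written above each panel. Each point is 1 gene, the bar is the median of the complex, and dotted lines mark 2-fold. For 8Br-cAMP under YAP/TAZ siRNA the medians run from 0.43 in complex III to 0.76 in complex I, and all 17 points of complex V are above 0.

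Complex II, succinate dehydrogenase, links the citric acid cycle to the chain. SDHA, its flavoprotein, read 4899 in siYT+8Br-cAMP and 2816 in siYT, against 4120 in siNC+8Br-cAMP and 2700 in siNC. Its 8Br-cAMP differences were 0.80 and 0.61, and its knockdown differences only 0.25 and 0.06. SDHC, a membrane anchor, read 4395 in siYT+8Br-cAMP and 2964 in siYT, against 5787 in siNC+8Br-cAMP and 4029 in siNC, and SDHD, the other anchor, read 5626 and 4243 against 6652 and 4957. All 3 genes were higher with 8Br-cAMP under both siRNAs (background 26.7%). SDHC and SDHD were also lower with knockdown, by log2 -0.40 and -0.44 for SDHC and -0.24 and -0.22 for SDHD with and without 8Br-cAMP. Of the other SDHC probe sets, one read 3828, 2656, 5056 and 4204 on the 4 arrays in the order siYT+8Br-cAMP, siYT, siNC+8Br-cAMP and siNC. Another 2 bright ones were lower with knockdown too but gave 8Br-cAMP differences of only -0.20 and 0.06 under YAP/TAZ siRNA. Of the 3 dim ones, one gave 0.37 there, one gave -0.60 and was 0.23 higher in siYT than in siNC, and one was below the floor on all 4 arrays.

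Complex III genes spread widely, with log2 differences of -1.17 to 1.16 for 8Br-cAMP under YAP/TAZ siRNA. UQCRC2, a core protein, read 14541 in siYT+8Br-cAMP and 6520 in siYT, against 9462 in siNC+8Br-cAMP and 6468 in siNC. Its second probe set read 5356 and 4333 against 7932 and 5523, and so gave a smaller 8Br-cAMP difference in siYT cells (0.31 in place of 1.16). Under control siRNA the first and second probe sets gave 0.55 and 0.52. Their signs were opposite for knockdown with 8Br-cAMP (0.62 and -0.57) and without it (0.01 and -0.35). UQCRC1, the other core protein, was higher with 8Br-cAMP by log2 0.96 and 0.50. UQCR10, a small subunit, read 20388 in siYT+8Br-cAMP and 11684 in siYT, against 10279 in siNC+8Br-cAMP and 12246 in siNC, but its weaker second probe set read 269 and 487 against 543 and 626. The 2 probe sets had opposite signs for 8Br-cAMP under YAP/TAZ siRNA (0.80 and -0.86) and for knockdown with 8Br-cAMP (0.99 and -1.01), and both were lower with 8Br-cAMP under control siRNA (-0.25 and -0.20) and with knockdown alone (-0.07 and -0.36).

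UQCRQ and UQCRB, which encode supernumerary subunits that lie against cytochrome b in complex III, showed the opposite of the common pattern on the array with both treatments. UQCRQ read 2023 in siYT+8Br-cAMP and 3997 in siYT, against 11532 in siNC+8Br-cAMP and 4562 in siNC. It was 2.53-fold higher with 8Br-cAMP under control siRNA and 1.98-fold lower under YAP/TAZ siRNA, and 5.70-fold lower in siYT+8Br-cAMP than in siNC+8Br-cAMP. It has 1 single-symbol probe set. UQCRB read 7018 in siYT+8Br-cAMP and 15822 in siYT, against 18596 in siNC+8Br-cAMP and 10168 in siNC. A second UQCRB probe set read 4863 and 15580 against 18613 and 14770, in the same order of arrays, so both placed siYT+8Br-cAMP lowest. Another, much dimmer, read 853 and 582 against 563 and 602, with siYT+8Br-cAMP highest.

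**Figure D4:**
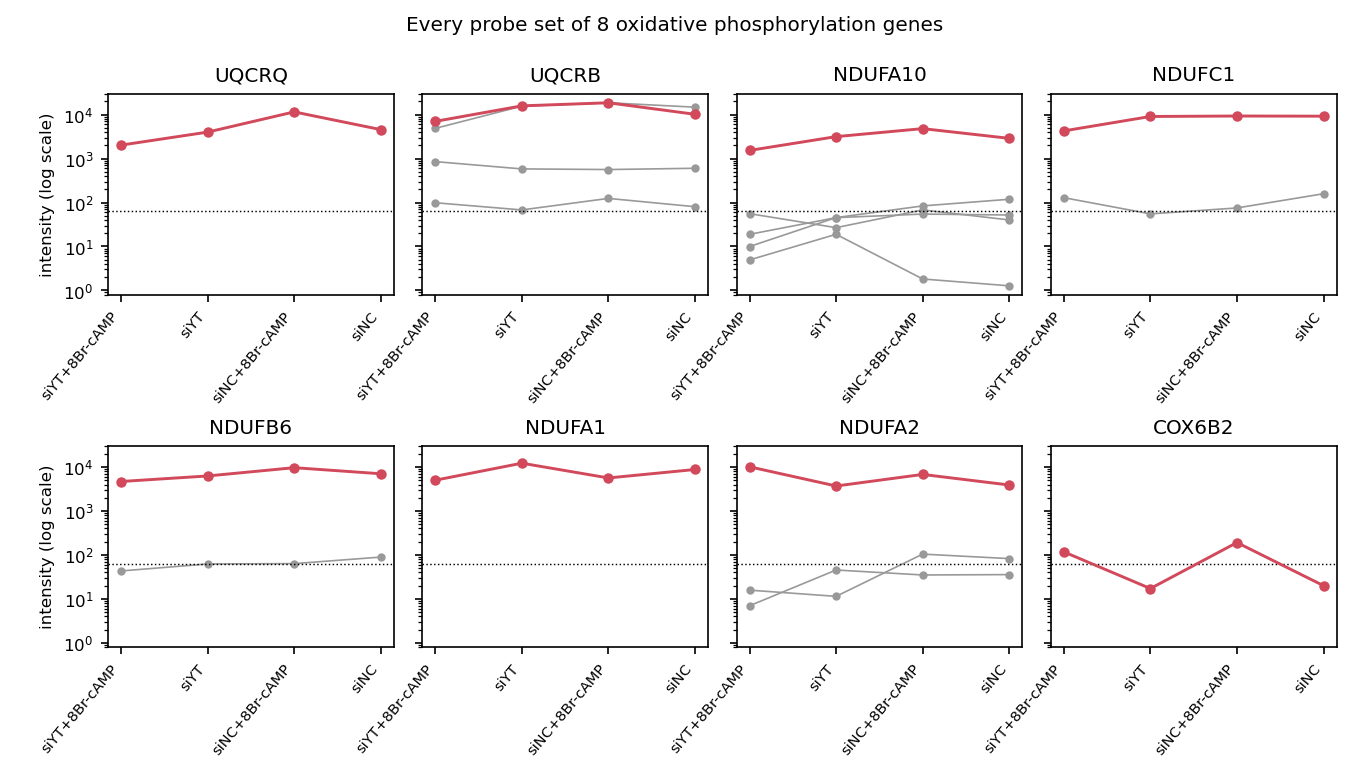
Intensity (log scale) of every single-symbol probe set of 8 oxidative phosphorylation genes on the 4 arrays. Red is the probe set used to represent the gene, grey are its others, and the dotted line is the floor of 62.6. UQCRQ, UQCRB, NDUFA10, NDUFC1 and NDUFB6 have their lowest red point in siYT+8Br-cAMP, NDUFA2 has its highest there, and COX6B2 is below the floor in siYT and siNC.

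Complex IV, cytochrome c oxidase, was higher with 8Br-cAMP for 9 of 12 genes under YAP/TAZ siRNA (median 0.71) and for 11 of 12 under control siRNA (median 0.39). COX7B, a small structural subunit, read 35926 in siYT+8Br-cAMP and 14295 in siYT, against 19042 in siNC+8Br-cAMP and 13012 in siNC, 2.51-fold and 1.46-fold higher with 8Br-cAMP. COX8A, the ubiquitous form of the smallest subunit, read 10793 in siYT+8Br-cAMP and 8430 in siYT, against 14797 in siNC+8Br-cAMP and 10994 in siNC, with both siYT arrays below both siNC arrays. Among isoform pairs, the broadly expressed forms followed the common pattern. COX4I1 had 8Br-cAMP differences of 0.59 and 0.40, COX6A1 of 0.85 and 0.44, COX6B1 of 0.96 and 0.56, and COX7A2 of 0.75 and 0.52, under YAP/TAZ and control siRNA. A second bright probe set of COX4I1 read 12271 in siYT+8Br-cAMP and 10112 in siYT, against 7962 in siNC+8Br-cAMP and 8982 in siNC, with 8Br-cAMP differences of 0.28 and -0.17. COX7A2L, which helps join complexes III and IV into supercomplexes, read 5961 in siYT+8Br-cAMP and 6833 in siYT, against 6163 in siNC+8Br-cAMP and 7820 in siNC, lower on both 8Br-cAMP arrays.

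The tissue-restricted isoforms were near the floor. COX6B2, known as the testis form, read 118 in siYT+8Br-cAMP and 17.2 in siYT, against 192 in siNC+8Br-cAMP and 20.0 in siNC. It was at least 1.88-fold and at least 3.06-fold higher with 8Br-cAMP, since both arrays without it were below the floor, and its additive limma coefficient was 1.26 ± 0.30 (SE) with an adjusted p of 0.159. COX6A2, the heart and muscle form, read 64.3 in siYT+8Br-cAMP and 130 in siYT, against 95.8 in siNC+8Br-cAMP and 74.7 in siNC. COX4I2, the lung and hypoxia form, read 8.48 and 100 against 84.5 and 65.8, and COX7A1, a muscle form, read 72.1 and 76.5 against 77.9 and 48.1. No order is read from the readings of COX6A2, COX4I2 and COX7A1 at these levels, and the COX6B2 coefficient rests on values set to the floor in siYT and siNC.

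Complex V, the ATP synthase, moved evenly in sign for 8Br-cAMP under YAP/TAZ siRNA, by the probe set that stood for each gene. All 17 of its genes above the floor were higher in siYT+8Br-cAMP than in siYT, with log2 differences of 0.15 to 1.34 and a median of 0.63. Under control siRNA 15 of 17 were higher, with a median of 0.34, and ATP5MC2 and ATP5MK were lower. Other probe sets of these genes did not all share the sign. An unshared ATP5MG probe set was lower with 8Br-cAMP, by log2 -0.58 under YAP/TAZ siRNA and -0.45 under control siRNA. The remaining ATP5MG probe sets were higher under both siRNAs, by 0.62, 0.74 and 0.89 under YAP/TAZ siRNA. ATP5F1B, the catalytic beta subunit, read 36648 in siYT+8Br-cAMP and 14522 in siYT, against 24428 in siNC+8Br-cAMP and 19058 in siNC, 2.52-fold and 1.28-fold higher with 8Br-cAMP. ATP5F1A, the alpha subunit, read 47463 and 26448 with YAP/TAZ siRNA, against 41227 and 32643 with control siRNA, in the same order. ATP5MK read 26078 in siYT+8Br-cAMP and 19510 in siYT, against 21615 in siNC+8Br-cAMP and 23278 in siNC.

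The genes ATP5MC1, ATP5MC2 and ATP5MC3 encode the same mature c subunit of the rotor, and they differed in pattern. ATP5MC1 read 1772 in siYT+8Br-cAMP and 1058 in siYT, against 3109 in siNC+8Br-cAMP and 2021 in siNC. It was 1.75-fold and 1.91-fold lower with knockdown and 1.67-fold and 1.54-fold higher with 8Br-cAMP, and its additive limma coefficients were -0.87 ± 0.27 (SE) for knockdown and 0.68 ± 0.27 for 8Br-cAMP, with adjusted p of 0.162 and 0.301. ATP5MC2 read 14867 in siYT+8Br-cAMP and 10388 in siYT, against 8639 in siNC+8Br-cAMP and 9845 in siNC, with both siYT arrays highest. ATP5MC3 read 20615 and 11953 with YAP/TAZ siRNA, against 21289 and 14892 with control siRNA. ATP5IF1, the inhibitor that binds the synthase when the proton gradient collapses, read 3375 in siYT+8Br-cAMP and 2482 in siYT, against 2633 in siNC+8Br-cAMP and 2180 in siNC, higher with either treatment. Its second probe set read 1707 and 1763 against 1833 and 1438. Another, dimmer, read 217 and 387 against 366 and 266. This one was lower for 8Br-cAMP under YAP/TAZ siRNA (-0.83) and for knockdown with 8Br-cAMP (-0.75). It was higher for 8Br-cAMP under control siRNA (0.46) and for knockdown alone (0.54).

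Other mitochondrial gene lists did not all move as the subunits did. The 76 genes of the mitochondrial ribosome, which translates the subunits encoded in mitochondrial DNA, were lower in siYT than in siNC for 69 (median -0.50), against a background of 42.6% lower. With 8Br-cAMP under control siRNA 39 of the 76 were higher (median 0.02, background 46.7%), and under YAP/TAZ siRNA 59 (median 0.38, background 46.3%). MRPL11 and MRPL19 were 2-fold lower in both knockdown comparisons (background 2.81%). Of 26 genes of mitochondrial protein import, 25 were lower in siYT than in siNC (median -0.48, background 42.6%). Their 8Br-cAMP medians were 0.18 and -0.03 under YAP/TAZ and control siRNA. TIMM17A, a channel subunit of the inner membrane, read 3275 in siYT+8Br-cAMP and 3583 in siYT, against 10498 in siNC+8Br-cAMP and 8139 in siNC. The 63 assembly factors of the complexes had 8Br-cAMP medians of 0.15 and 0.10 and knockdown medians of -0.11 and -0.13. COX20, a chaperone of the complex IV subunit COX2, read 391 in siYT+8Br-cAMP and 1355 in siYT, against 818 in siNC+8Br-cAMP and 3029 in siNC, 2-fold lower with either treatment. COA7 and TACO1, further complex IV factors, were 2-fold lower in both knockdown comparisons, by log2 -1.33 and -1.66 with and without 8Br-cAMP for COA7. TACO1 read 384 in siYT+8Br-cAMP and 318 in siYT, against 769 in siNC+8Br-cAMP and 677 in siNC.

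**Figure D5:**
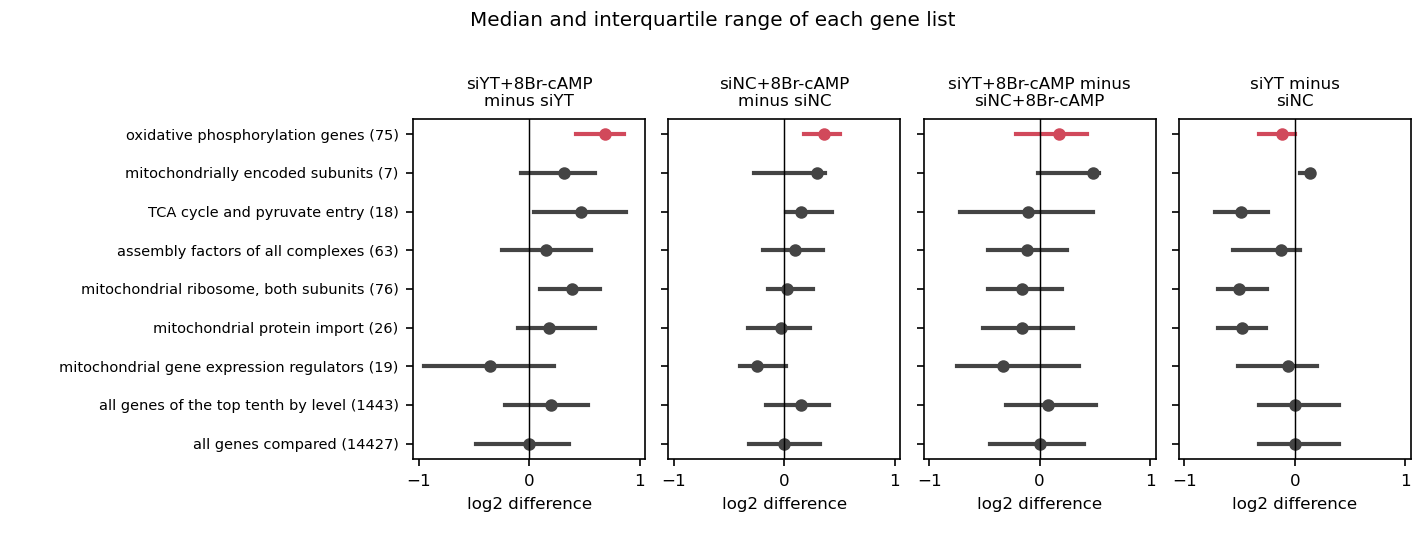
Median (point) and interquartile range (line) of the log2 differences in each gene list, with the number of genes compared in brackets, for the 4 comparisons. The oxidative phosphorylation genes (red) have the rightmost point of the lists shown for 8Br-cAMP under YAP/TAZ siRNA (0.69) and under control siRNA (0.36), and the mitochondrial ribosome, protein import and TCA lists have medians of -0.48 to -0.50 for siYT minus siNC.

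The subunits encoded in mitochondrial DNA were read for 7 genes. Their median 8Br-cAMP differences were 0.31 and 0.29 under YAP/TAZ and control siRNA, with 5 of 7 higher in each (background 46.3% and 46.7%). Their knockdown medians were 0.48 with 8Br-cAMP and 0.13 without it. COX1, the catalytic core of complex IV, read 123314 in siYT+8Br-cAMP and 77776 in siYT, against 85315 in siNC+8Br-cAMP and 69716 in siNC. The brighter of the ND4 probe sets, for a complex I proton channel, read 102193 and 70792 against 73060 and 63139. Signals this bright may be compressed at the top of the scale, and whether they were saturated is not given in the sources used here.

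Of the 19 regulators of mitochondrial gene expression, 11 were lower with 8Br-cAMP under YAP/TAZ siRNA (median -0.36, background 48.5%) and 13 under control siRNA (median -0.25, background 44.1%). TFAM, which packages and transcribes mitochondrial DNA, read 312 in siYT+8Br-cAMP and 827 in siYT, against 898 in siNC+8Br-cAMP and 1603 in siNC, lower with either treatment. YY1 read 2850 in siYT+8Br-cAMP and 5847 in siYT, against 5218 in siNC+8Br-cAMP and 10037 in siNC. PPARGC1A, the co-activator of mitochondrial biogenesis, read 568 in siYT+8Br-cAMP and 379 in siYT, against 224 in siNC+8Br-cAMP and 173 in siNC, which is 2-fold higher in both knockdown comparisons (background 2.38%). Its relative PPARGC1B read 49.4 and 148 against 79.6 and 193. NRF1 was higher with knockdown by log2 0.57 and 0.61 and lower with 8Br-cAMP by log2 -0.36 and -0.31. GABPA, the DNA-binding part of GABP, read 141 in siYT+8Br-cAMP and 1195 in siYT, against 507 in siNC+8Br-cAMP and 591 in siNC. TFB1M, a ribosomal RNA methyltransferase, was higher with knockdown by 0.94 and 1.14, and TFB2M, a transcription factor of mitochondrial DNA, lower by -1.13 and -0.52. TWNK, the mitochondrial helicase, was lower with knockdown by log2 -0.60 with and -1.43 without 8Br-cAMP, and TEFM, an elongation factor, was lower with 8Br-cAMP by log2 -1.04 and -0.58. ESRRA, an orphan nuclear receptor of energy metabolism, was higher with 8Br-cAMP by log2 0.60 under YAP/TAZ siRNA and 0.01 under control siRNA. SSBP1, the single-stranded DNA-binding protein, was lower with knockdown by log2 -1.08 and -0.63, and GABPB1 lower with 8Br-cAMP by log2 -0.63 and -0.37. PPRC1, ESRRG, POLRMT, POLG, POLG2 and MTERF1 differed by less than 1.5-fold in each of the 4 comparisons.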

How the data were processed

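Total RNA of KGN cells was labelled as biotinylated cRNA and read on 4 arrays, 1 per group, per the labels' protocols. The deposited values are linear probe set intensities. The submitters' processing notes name RMA and the Affymetrix Expression Console, and the versions are not given in the sources used here. RMA output is usually on a log scale, whereas these intensities ran down to 0.0806 and their 2% trimmed mean was 500.1 on every array, so the background correction and summary behind them stay unknown. Since the table is linear, values below the median of all intensities (62.6, log2 5.97) were set to that floor and log2 was taken, with no further normalization.

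The platform annotation gave 1 symbol to 41097 of 54675 probe sets, several to 1801 and none to 11777, and a look-up by gene identifier matched 41043 and changed 0. The probe set with the largest average log2 value stood for its gene. A fold against the floor is a lower bound.

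Differences of log2 values were taken for knockdown and for 8Br-cAMP within each level of the other factor, and sizes of 2-fold and 1.5-fold stand in for a test, beside the share of all 14427 genes compared. limma 3.58.1 in R 4.3.3 gave the additive fit, with Benjamini-Hochberg adjustment over all genes and 4.94 prior degrees of freedom. The code of the fit was also run on simulated data, which does not test its SE or p-values on these arrays. Tables were handled with Python 3.11.15, pandas 2.3.3 and numpy 2.4.6. The number of arrays limits the precision of every value.

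Named members were those at 2-fold in any comparison, the highest and lowest of each complex by mean knockdown and mean 8Br-cAMP difference, the isoform pairs, ATP5IF1, the SDH genes and the catalytic core. Genes of other lists were named at 2-fold in both knockdown or both 8Br-cAMP comparisons, together with all regulators and steroid electron donors. Others named as examples were chosen after their values were seen. The members and lists were chosen with earlier results of these data known. Alternatives were no floor, a filter at the 75th percentile, the mean over probe sets, no shared probe sets, cyclic loess, centring, a 1.5-fold threshold and the additive fit. Added after seeing the data were the probe set with the highest linear mean a filter for genes above the floor on all 4 arrays, and a median without the members that were 2-fold lower on the siYT+8Br-cAMP array, which is trimmed by outcome and given as a value only.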

Additional observations from a re-analysis of the deposited data

Results flagged for a closer look

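In 3 members the effect of a treatment ran in opposite directions, by at least 1.5-fold each way, between the backgrounds in which it was measured. With 1 array per group, the difference between the effects was not tested.

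UQCRQ, a complex III subunit, was 1.98-fold lower with 8Br-cAMP under YAP/TAZ siRNA and 2.53-fold higher under control siRNA, a difference of differences of -2.32 on the log2 scale. UQCRB, of the same complex, was 2.25-fold lower with 8Br-cAMP under YAP/TAZ siRNA and 1.83-fold higher under control siRNA, a difference of differences of -2.04. Its knockdown effect also turned, 2.65-fold lower with 8Br-cAMP and 1.56-fold higher without it, which is the same quantity of -2.04 seen from the other factor. A second UQCRB probe set gave -2.01, and another, dimmer one gave 0.65. NDUFA10, of complex I, was 2.06-fold lower with 8Br-cAMP under YAP/TAZ siRNA and 1.66-fold higher under control siRNA, a difference of differences of -1.78. Of all 14427 genes, 2.1% had 8Br-cAMP differences opposite by 1.5-fold each way, and 2.11% had knockdown differences of that kind, against 3 and 1 of the 75 members. The lowest of the 4 values was the siYT+8Br-cAMP one in all 3 genes, on the array with the highest ratios of 3' to 5' signal, and the part of that array in these values was not tested.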

How the results depend on the processing

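The main medians were 0.69 and 0.36 for 8Br-cAMP under YAP/TAZ and control siRNA, 0.18 and -0.12 for knockdown with and without 8Br-cAMP, and 0.30 for the difference of differences. Under YAP/TAZ siRNA the 8Br-cAMP median was 0.44 as the mean over all probe sets, 0.44 without shared probe sets, 0.54 after cyclic loess and 0.92 after centring, and under control siRNA it was 0.25 as the mean over probe sets and 0.24 after loess. Without the members 2-fold lower on the siYT+8Br-cAMP array, a list trimmed after seeing the data, it was 0.35. The knockdown median with 8Br-cAMP was 0.020 as the mean over probe sets, 0.092 after loess, 0.33 after centring and, reversed, -0.061 without shared probe sets. The difference of differences was 0.48 after centring. Settings not listed here gave medians within 0.1 of the main ones. For genes above the floor centring adds a constant to each difference (0.23 for 8Br-cAMP under YAP/TAZ siRNA) and moved the median of all genes by 0.10 for knockdown with 8Br-cAMP, 0.14 for 8Br-cAMP under YAP/TAZ siRNA and 0.12 for the difference of differences.

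Counts at 2-fold moved as follows, higher or lower in the treated array. For 8Br-cAMP under YAP/TAZ siRNA, 8 higher became 5 as the mean over probe sets, 5 without shared probe sets, 30 after centring and 44 at 1.5-fold, and 5 lower became 2 as the mean and 1 after centring. For 8Br-cAMP under control siRNA, 2 higher became 1 with the 75th percentile filter, 1 with only genes above the floor on all arrays, 4 without shared probe sets and 9 at 1.5-fold, and 0 lower became 1 with no floor, without shared probe sets and at 1.5-fold. For knockdown with 8Br-cAMP, 0 higher became 1 with no floor, 1 without shared probe sets, 2 after centring and 12 at 1.5-fold, and 5 lower became 1 as the mean, 3 after centring and 8 at 1.5-fold. For knockdown alone, 0 higher became 1 with no floor, as the mean and without shared probe sets and 3 at 1.5-fold, and 1 lower became 0 as the mean, 2 without shared probe sets and 5 at 1.5-fold. Of 164 values for 16 single genes, 148 kept their direction and moved by less than the SD between probe sets of 1 gene (0.37 to 0.54), 14 moved and 2 reversed, both for UQCRB without shared probe sets, at 0.60 for knockdown with 8Br-cAMP and 0.55 for 8Br-cAMP under YAP/TAZ siRNA, where a dimmer, unshared probe set stands in. Apart from these and the constants of centring, the cause of the moves was not tested. Many of the 148 values could not have moved. The filters leave a gene's own value unchanged, and leaving out the floor alters only values below it. A choice among probe sets cannot move a gene with 1 unshared probe set. For UQCRQ only loess and centring could alter the value, so the 148 is not a measure of robustness. No paired analysis was possible because each group has 1 array, and no array could be left out for the same reason.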

Other observations

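The 18 genes of the TCA cycle and pyruvate entry, which feed electrons to the chain, had a median of -0.48 for siYT minus siNC, with 16 lower (background 42.6%). Their 8Br-cAMP medians were 0.47 and 0.15 under YAP/TAZ and control siRNA, with 14 of 18 higher in each (background 46.3% and 46.7%). MPC1, a subunit of the mitochondrial pyruvate carrier, read 2870 in siYT+8Br-cAMP and 1188 in siYT, against 1545 in siNC+8Br-cAMP and 710 in siNC, at least 2-fold higher in both 8Br-cAMP comparisons, where 1.46% of all genes were.

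The 21 glycolysis genes had a knockdown median of 0.52 with 8Br-cAMP, with 19 higher (background 46.9%), and of 0.16 without it, with 16 higher (background 47.9%). Their 8Br-cAMP medians were 0.08 and 0.11 under YAP/TAZ and control siRNA. PFKFB3, which makes the allosteric activator of phosphofructokinase, read 3321 in siYT+8Br-cAMP and 3953 in siYT, against 537 in siNC+8Br-cAMP and 1135 in siNC. The 12 genes of the mobile carriers, coenzyme Q synthesis and the acyl carrier had knockdown medians of -0.17 and -0.39 with and without 8Br-cAMP and 8Br-cAMP medians of 0.17 and 0.25 under YAP/TAZ and control siRNA. COQ2, an enzyme of coenzyme Q synthesis, read 149 in siYT+8Br-cAMP and 420 in siYT, against 1327 in siNC+8Br-cAMP and 1338 in siNC. FDX1, the ferredoxin that passes electrons to the mitochondrial steroid enzymes, read 5127 in siYT+8Br-cAMP and 2934 in siYT, against 4529 in siNC+8Br-cAMP and 2737 in siNC, higher with 8Br-cAMP by log2 0.81 and 0.73, and FDX2 read 190 and 223 against 269 and 412. The subunit formerly called NDUFA4, a member of complex IV annotated as COXFA4, lay outside the naming rule and read 23601 in siYT+8Br-cAMP and 18173 in siYT, against 21780 in siNC+8Br-cAMP and 16439 in siNC. Its relative COXFA4L2 read 116 and 48.9 against 10.2 and 96.0, around the floor.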
